A study of Stylophora pistillata with 24 samples.

Results

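The proteasome genes of the stony coral Stylophora pistillata were followed through its life stages and between a shallow and a deep reef. They were all genes whose product name in the authors' annotation contains the word proteasome, which gave 45 of the 33281 genes in the count table. The libraries, 24 in all and 3 for each of 8 groups, hold poly(A) RNA of whole animals. Planulae, the swimming larvae, and adults came straight from the reef, at either 5 m (called shallow) or 45 m (called deep). Juveniles began as shallow planulae and were reared on the reef in plastic settlement chambers, where controls stayed at 5 m and translocated juveniles were moved to 45 m, and they were sampled at 8 or 60 days. No genotype or agent is given for any group. Whether replicate samples stem from separate colonies or broods is not stated, so p-values measure the spread among these samples alone, and it may be technical.

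The proteasome is the barrel-shaped protease that destroys proteins marked with ubiquitin in the cytosol and nucleus of eukaryotic cells. Its 20S core stacks outer alpha rings, which gate the entrance, on inner beta rings, which hold the cutting sites. The 19S regulatory particle caps the core: its base ATPases unfold the substrate and its other subunits bind and remove ubiquitin. Dedicated chaperones build both parts, and alternative caps, such as the PA28 and PA200 activators, can take the place of the 19S particle.

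The coral gene set held an almost complete proteasome in single copies. There were 7 alpha subunits (types 1 to 7), 7 beta subunits (types 1 to 7), 6 base ATPases (4, 6A-B, 6B, 7, 8 and 10B) and 11 non-ATPase subunits of the 19S particle (1, 2, 3, 4, 6, 7, 8, 11, 12, 13 and 14). Another 9 genes encode assembly factors, and 5 encode activators, an inhibitor and partners. The names are automatic homology names, and the gene models of beta type-6 (gene13479) and ATPase 4 (gene9000) carry a low-quality label in the annotation. In the RefSeq gene table of assembly jaStyPist1.2, 44 of the 45 genes were found. They lay on 14 chromosomes or scaffolds, with 0 pairs of direct neighbours and 0 pairs within 10 genes of each other. The non-ATPase subunit 10 (gankyrin in mammals, a chaperone of the base) was the exception to single copies, with gene2790 expressed in all groups and gene20370 at no more than 0.545 CPM (counts per 1e6 counts) in every library. The second copy was not tested, which left 44 tested genes.

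Sequencing depth was between 13.57 M and 35.78 M counts a library (median 24.32 M). Levels are CPM with TMM scaling (a trimmed mean of log ratios, which sets the bulk of genes level between libraries), given as mean ± SD (n = 3). The TMM factors followed stage: 0.558 to 0.626 in shallow planulae, 0.676 to 0.909 in deep planulae and 1.199 to 1.322 in shallow adults. Directions that involve planulae therefore depend on the scaling, and their counts are given also with library totals as the only scaling, an alternative chosen after seeing the data. Some libraries stood apart from their group in proteasome level. Deep planula 3 was the highest of its group in 37 of 44 genes, 60-day control 3 in 39 and deep adult 3, the library with the smallest total, in 41. In the 8-day groups, translocated juvenile 1 was the highest in 39 genes and control 2 the lowest in 41. Cilia genes (21) summed to between 3917 and 6257 CPM in planulae and between 789 and 1439 in all other libraries, and their part in the stage differences was not tested. In whole-organism tissue, fewer cells of a type and less RNA per cell cannot be told apart.

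**Figure D1:**
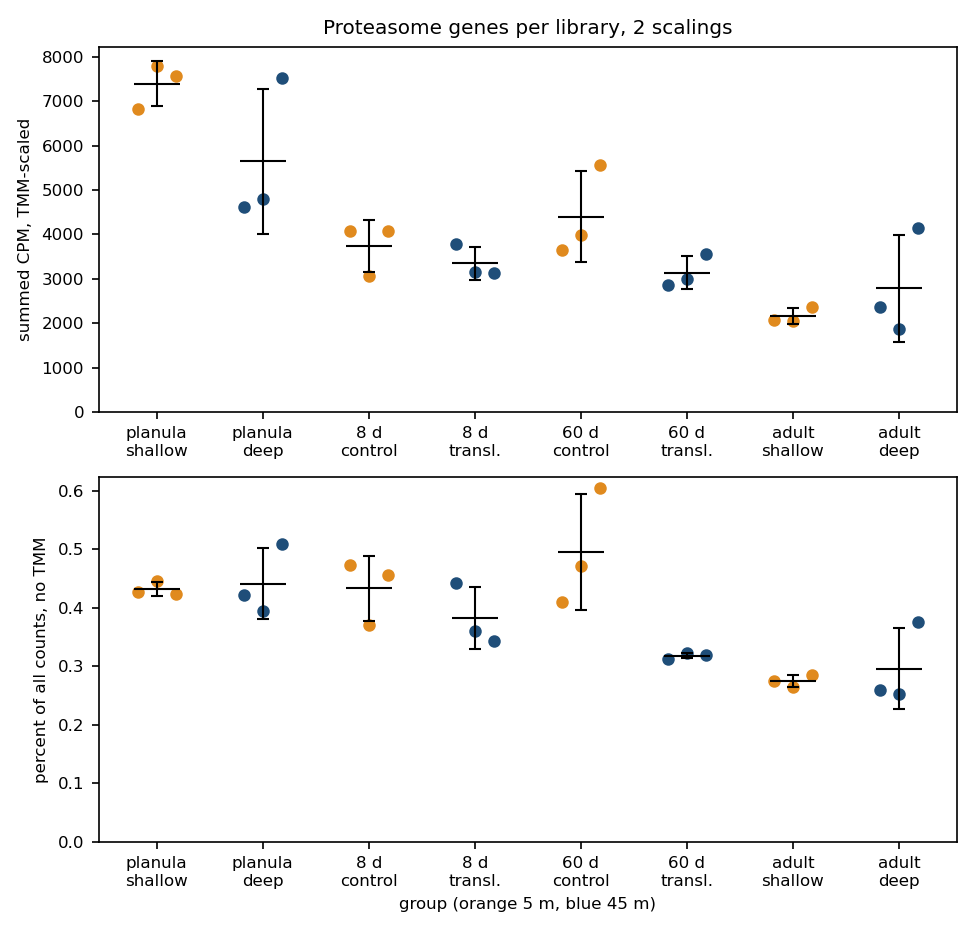
Summed level of the 45 proteasome genes in each library, by group, as TMM-scaled CPM (top) and as percent of all counts (bottom). Points are libraries (orange 5 m, blue 45 m) and bars are mean ± SD of 3. The planula groups have the highest means in the top panel, 60-day control juvenile 3 (0.605%) is highest in the bottom panel, and shallow adults are low in both.

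The 45 genes together took 0.432 ± 0.0123% of all counts in shallow planulae, 0.441 ± 0.0601% in deep planulae and 0.433 ± 0.0556% in 8-day controls, and 0.382 ± 0.0531% in 8-day translocated juveniles. The share was 0.495 ± 0.0998% in 60-day controls, 0.318 ± 0.00503% in 60-day translocated juveniles, 0.275 ± 0.01% in shallow adults and 0.296 ± 0.0693% in deep adults. The shallow adults lay at 0.265 to 0.285% and did not overlap with either planula group or either control juvenile group. On the TMM scale the sums were 7402 ± 510 CPM in shallow planulae, 5651 ± 1630 in deep planulae and 2165 ± 182 in shallow adults.

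The core particle holds its subunits in equal numbers, but their transcripts differed in level. Levels between genes are compared here as the mean over the 8 groups in CPM per 1000 bases of deposited gene length. The order depends on those lengths, such as 908 bases for alpha type-6 and 1736 for alpha type-7-A, and their accuracy was not tested. In the alpha ring, type-6 (gene11646) stood at 137 and type-7-A (gene17631) at 50.8. Type-6 was the highest of its ring in 5 of 8 groups and type-7-A the lowest in 7. In the beta ring, type-3 (gene17531) stood at 153 and type-2 (gene18274) at 63.7, and type-2 was the lowest of its ring in all 8 groups. Among the base ATPases, ATPase 4 (gene9000) was the highest in all 8 groups and averaged 154, against 63.5 for 6B (gene13231). Subunit 6 (gene16400) led the non-ATPase subunits in all 8 groups at 107, and subunit 7 (gene11467), which pairs with the deubiquitinase subunit 14, was the lowest in 7 of 8 at 37.8. Among assembly factors the maturation protein (gene1905, known as POMP in mammals, which helps the beta rings form) stood at 62.8, within the range of the rings. The other assembly factors ran from 5.71 for subunit 5 (gene10651) to 26.6 for assembly chaperone 2 (gene22727), apart from the near-silent gene20370 at 0.115. Beta types 1-B (116), 7 (114), 4 (110) and 5 (109) lay close together in that order.

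The first question was how proteasome expression changes between life stages. From the 60-day control juvenile to the shallow adult, proteasome genes fell together. Of 44 tested genes 34 were lower in adults and 1 was higher, where 14.7% of all 25735 tested genes were lower and 16.7% higher (31.4% called in all; adjusted p under 0.05, edgeR quasi-likelihood test with Benjamini-Hochberg adjustment, the test behind every call here). The median log2 fold change of the members was −1.05 against 0.03 over all genes, and 40 of 44 genes had no overlap between the groups, against 49.6% of all genes. With library totals only, 33 were lower and 1 higher, where 10.2% of all genes were lower and 17.3% higher. Adults also came from open reef and juveniles from chambers, and the effects of age and of rearing cannot be told apart.

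All 14 core subunits were among them. Beta type-5 (gene3280), the chymotrypsin-like cutting site, read 102, 107 and 145 CPM in 60-day controls and 32.5, 31.4 and 47.1 CPM in shallow adults. Every adult library was below every juvenile library, and the log2 fold change was −1.67 (SE 0.36, adjusted p = 0.00184). Alpha type-4 (gene21279), a subunit of the outer ring, read 126, 138 and 224 CPM against 56.5, 44.9 and 64.9 in the adults (−1.55, SE 0.27, adjusted p = 0.000413). The maturation protein (gene1905) moved with the core it helps to build, from 93, 106 and 165 CPM to 38.9, 41.2 and 44 (−1.55, SE 0.25, adjusted p = 0.000196). All 3 genes were without overlap between the groups. Control juvenile 3 was the highest library for each, and without it 21 proteasome genes were called in place of 35.

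The 19S particle fell less. Its 6 base ATPases were all lower (median −1.02), as were 9 of 11 non-ATPase subunits (median −0.91), against a median of −1.34 in the core. Subunits 1 (gene7252) and 2 (gene21505), the large scaffolds of the base, were at the small end with −0.51 (SE 0.17, adjusted p = 0.0316) and −0.61 (SE 0.18, adjusted p = 0.016). The differences between these classes were not tested. Among assembly factors 5 of 8 were lower, such as assembly chaperone 2 (gene22727), a partner of chaperone 1 in building the alpha ring, at 34.2, 41.5 and 65.9 CPM against 18.3, 18.9 and 25.8 (−1.17, SE 0.25, adjusted p = 0.00211). The exception was the proteasome inhibitor PI31 (gene24539), named for its effect on the isolated core. It read 16.5, 13.7 and 22.2 CPM in 60-day controls and 22.9, 25.6 and 32.3 CPM in shallow adults, and was called higher by 0.63 (SE 0.2, adjusted p = 0.0221). It missed the threshold with only the compared libraries and without control juvenile 1 or 2 or shallow adult 3 (adjusted p up to 0.107).

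From planula to adult at 5 m the difference was larger on the TMM scale. Of 44 genes 37 were lower in adults and 1 higher, where 23.4% of all genes were lower and 30.9% higher (54.3% called in all), with a member median of −1.72 against 0.35. The groups did not overlap in 39 of 44 genes, against 63.6% of all genes. With library totals only, 29 were lower and 7 higher, where 10.2% of all genes were lower and 57.4% higher. The member median was then −0.60 and that of all genes 1.46. A change of scaling moves all genes of a comparison by nearly the same amount, so the distance of the members from the median gene (−2.07 with TMM) is kept by construction. All 14 core subunits were lower on both scales, with medians of −2.23 and −1.11. The 17 ATPase and non-ATPase subunits of the 19S particle were all lower with TMM (median −1.68), and with library totals 14 were lower and 1 higher (median −0.56).

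Beta type-5 (gene3280) read 208, 242 and 238 CPM in shallow planulae, and the adult values above gave −2.63 (SE 0.37, adjusted p = 8.6e-06; −1.52 with library totals). Alpha type-6 (gene11646), the alpha subunit with the highest mean per length, read 229, 302 and 278 CPM in planulae and 41.9, 40.1 and 54.4 in adults (−2.57, SE 0.43, adjusted p = 6.69e-05; −1.45 with library totals). ATPase 8 (gene1407), one of the motors of the base, read 508, 626 and 602 CPM against 139, 140 and 126 (−2.1, SE 0.22, adjusted p = 3.3e-07; −0.97 with library totals). Planulae were above adults in every library for all 3 genes. Subunit 1 (gene7252), read at 182, 183 and 184 CPM in planulae and 108 ± 0.873 in adults, turned with the scaling: it was lower in adults with TMM (−0.76, adjusted p = 0.00127) and higher with library totals (0.36, adjusted p = 0.0366).

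Activators and partners did not follow the core on the TMM scale. Their 5 genes summed to 201 ± 8.72 CPM in shallow planulae, 226 ± 25.6 in 60-day controls and 192 ± 10.5 in shallow adults, while the 14 core genes summed to 3018 ± 274, 1717 ± 486 and 673.7 ± 104. The PA28-type activator subunit 3 (gene17316), a nuclear cap in animals, was lower in shallow adults at 36.9 ± 4.38 against 62.6 ± 3.32 CPM in shallow planulae (−0.76, SE 0.26, adjusted p = 0.0196) and missed the threshold with library totals (0.36, adjusted p = 0.174). The PA200-like subunit 4 (gene11884) stood at 52.7 ± 2.13 CPM in planulae and 66.2 ± 8.56 in adults (0.33, adjusted p = 0.109). ECM29 (gene17502), which in yeast holds core and cap together, stood at 51.2 ± 5.32 and 55.9 ± 6 (0.13, adjusted p = 0.522). With library totals these last 2 genes were higher in adults, by 1.45 and 1.26 (adjusted p = 1.78e-05 and 7.06e-05).

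In the authors' deposited table, 37 proteasome genes were higher and 1 lower in shallow planulae against shallow adults, and 22 were higher and 2 lower in deep planulae against deep adults. The comparison of deep adults with deep planulae made here called 30 lower and 1 higher (20.7% of all genes lower and 23.9% higher, 44.6% called), with 21 of 44 genes without overlap (48.2% of all genes). It called 19 lower and 2 higher with library totals, where 12.5% of all genes were lower and 34.4% higher. Without deep planula 3 it called 18 genes, without deep adult 1 20 and without deep adult 2 19.

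**Figure D2:**
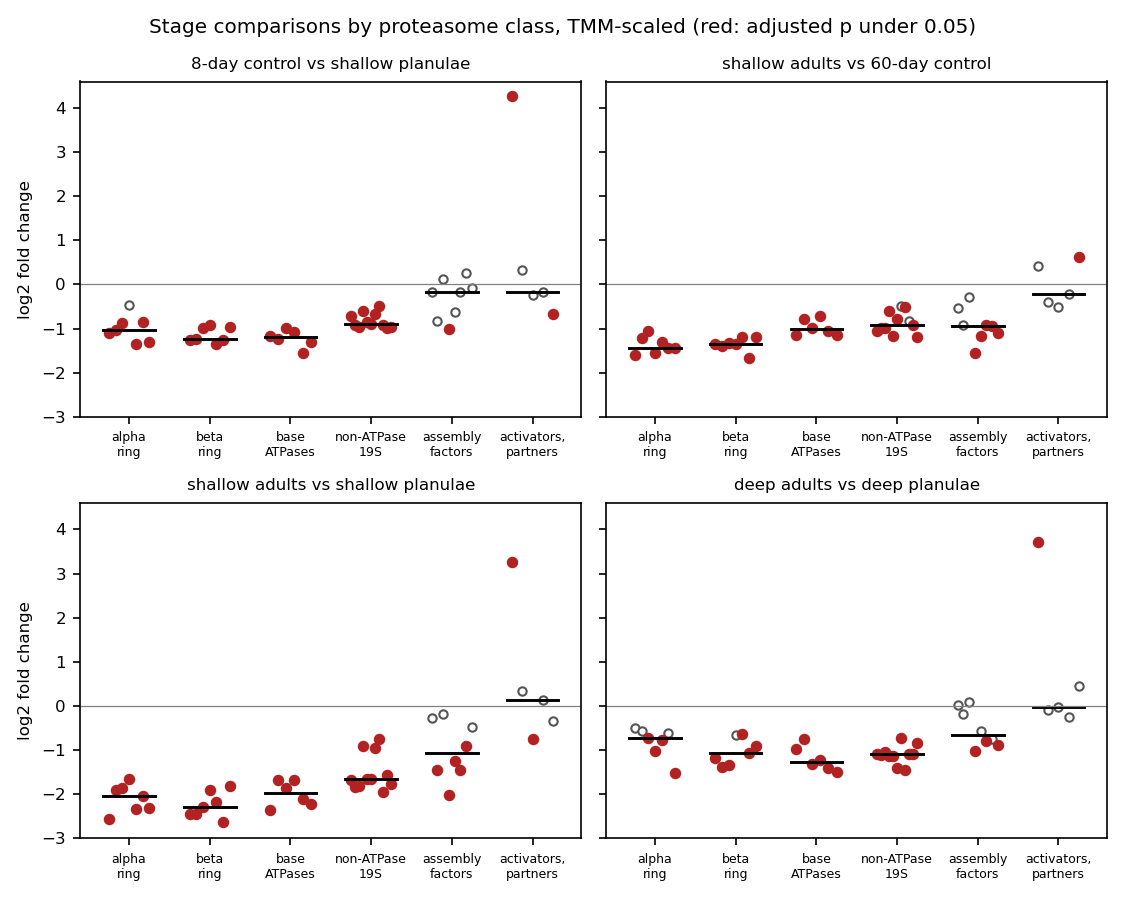
Log2 fold change (y axis, TMM-scaled) of each tested proteasome gene in 4 stage comparisons, by class of subunit (x axis). Points are genes, red points passed an adjusted p of 0.05 and bars are class medians. Core and 19S subunits lie below 0 in every panel, while the activators and partners class holds the STS1-like gene at 4.27, 3.27 and 3.72 in the panels with planulae.

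Between shallow planulae and 8-day controls the call depended on the scaling. With TMM, 32 genes were lower in juveniles and 1 higher (18.1% and 21% of all genes, 39% called in all). The groups did not overlap in 38 genes, against 55.5% of all genes. Without 8-day control 2, 14 genes were called in place of 33. With library totals 1 was lower and 12 higher, where 7.52% of all genes were lower and 49.5% higher. Of the 12, 5 were assembly factors. The member median was −0.91 with TMM and 0.08 with library totals, against 0.16 and 1.14 over all genes. ATPase 8 (gene1407) was lower on both scales, from the planula values above to 202, 185 and 203 CPM (−1.56, SE 0.22, adjusted p = 1.26e-05; −0.56, adjusted p = 0.0047 with library totals). Beta type-1-B (gene19800) was lower with TMM only, at 191, 259 and 249 CPM in planulae and 92.1, 82.2 and 101 in juveniles (−1.34, SE 0.25, adjusted p = 0.000258). Of the cilia genes, 20 of 21 were lower over the same step with TMM and 17 with library totals.

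The gene named STS1-like (gene10125) went the other way on both scales. In yeast, STS1 helps bring proteasomes to the nucleus. It read 1.44, 0.333 and 0.159 CPM in shallow planulae and 14.5, 9.86 and 13.1 in 8-day controls, with no overlap (4.27, SE 0.66, adjusted p = 3.56e-05; 5.21 with library totals). It stood at 4.65, 4.59 and 9.49 CPM in shallow adults (3.27, SE 0.64, adjusted p = 0.000274; 4.32 with library totals) and at 7.4, 6.57 and 21.2 CPM in deep adults against 1.1, 1.02 and 0.512 in deep planulae (3.72, SE 0.62, adjusted p = 9e-05; 4.04 with library totals). Planulae were thus the stage with the least of this transcript at both depths. Their levels were near the floor (0.159 to 1.44 CPM) and spread widely in shallow planulae, so the sizes of these fold changes are imprecise.

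From 8 to 60 days the proteasome changed little beside the spread between libraries. In controls 0 of 44 genes were called (8.51% of all genes, 3.83% higher and 4.69% lower), 7 had an unadjusted p under 0.05, and the DESeq2 Wald test called 3. The member median was 0.25, and 36 genes were positive. The lean was the other way in translocated juveniles, with a median of −0.1 and 32 of 44 genes negative. In translocated juveniles 1 gene was called (7.41% of all genes, 3.38% higher and 4.03% lower), the subunit 10 chaperone (gene2790), which read 10.9, 8.26 and 7.95 CPM at 8 days and 17.7, 22.1 and 14.8 at 60 days, without overlap (29.8% of all genes; 1.01, SE 0.23, adjusted p = 0.0109). In controls the same gene read 12.2, 13.2 and 13.8 CPM at 8 days and 22.9, 21 and 20.6 at 60 days, also without overlap, at an adjusted p of 0.0575. With library totals only, 0 genes were called in translocated juveniles.

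The next question was how native deep planulae differ from shallow ones. With TMM, 7 of 44 genes were lower at depth and 2 higher (10.4% and 12.5% of all genes, 22.9% called in all), so the share called was near the background. The member median was −0.39 against 0.09 over all genes, and 16 genes had no overlap against 39.6% of all genes. With library totals 1 was lower and 6 higher, where 4.71% of all genes were lower and 23.6% higher. The member median was then 0.04, against 0.54 over all genes. Leaving out 1 library at a time gave 3 (without shallow planula 2 or 3 or deep planula 1) to 12 (without deep planula 3) called genes. Ribosomal protein genes summed to 210200 ± 34300 CPM in shallow and 84530 ± 24400 in deep planulae, and their part in this difference was not tested.

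The core and the cap differed in position. All 14 core subunits had a negative log2 fold change with TMM (median −0.70), and 12 of 14 with library totals (median −0.27). In the 19S particle 13 of 17 were negative with TMM (median −0.24) and 3 of 17 with library totals (median 0.19). Because both parts are measured in the same library, the ratio of the summed core to the summed 19S level is free of the scaling. It was 0.744, 0.805 and 0.781 in shallow planulae and 0.552, 0.597 and 0.671 in deep planulae, with no overlap. This ratio is a description over chosen genes and was given no test.

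**Figure D3:**
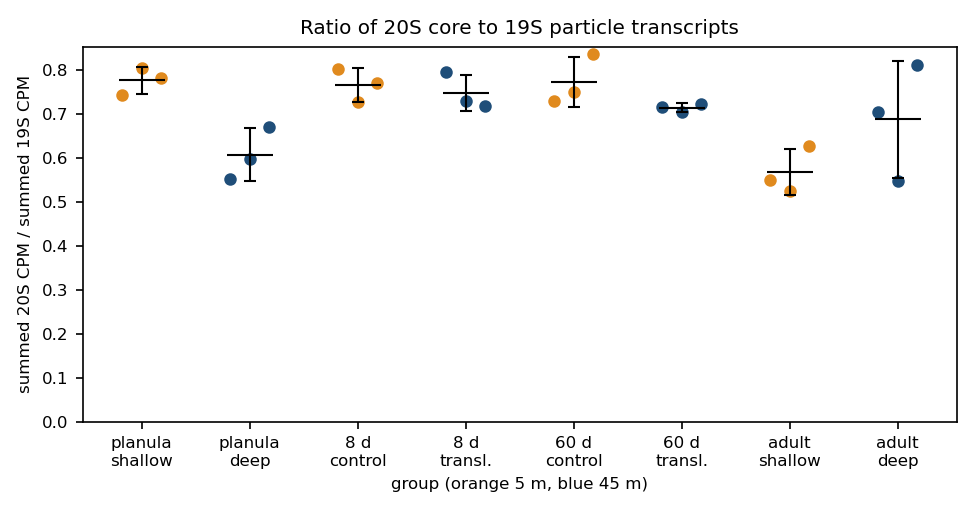
Ratio of summed 20S core CPM to summed 19S CPM in each library (y axis), by group (x axis). Points are libraries (orange 5 m, blue 45 m) and bars are mean ± SD of 3. Deep planulae (0.552 to 0.671) and shallow adults (0.525 to 0.626) are lowest, and the deep adults spread from 0.547 to 0.811.

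Beta type-1-B (gene19800), a structural subunit of the beta ring, showed the deep planula difference on every setting tried. It read 191, 259 and 249 CPM in shallow planulae and 99.8, 99.1 and 148 CPM in deep planulae, with no overlap. The log2 fold change was −1.01 (SE 0.25, adjusted p = 0.00685), and −0.58 (adjusted p = 0.0151) with library totals. PI31 (gene24539) read 34.5, 34.5 and 32.2 CPM against 17.9, 20.1 and 17.1 CPM (−0.88, SE 0.2, adjusted p = 0.00421), a difference that missed the threshold with library totals (adjusted p = 0.151). Deep planula 3, high for most core subunits, was the lowest of its group for PI31.

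Of the other genes called lower, ATPase 6A-B (gene12869) read 239, 260 and 284 CPM against 145, 144 and 182 (−0.74, SE 0.2, adjusted p = 0.0135). Alpha type-2 (gene2120) read 237, 302 and 289 CPM against 139, 139 and 203 (−0.79, SE 0.27, adjusted p = 0.0389). Both had no overlap, and both were uncalled with library totals. Alpha type-7-A (gene17631; −0.69), the maturation protein (gene1905; −0.69) and assembly chaperone 4 (gene23255; −0.82), which helps form the alpha ring, had adjusted p-values of 0.0476, 0.0497 and 0.0422 and were likewise uncalled with library totals. Over 12 alternatives the maturation protein lost the call in 8 (adjusted p up to 0.271) and assembly chaperone 4 in 7 (up to 0.331). Alpha type-2 lost it in 5 and ATPase 6A-B in 4, and alpha type-7-A was not followed one by one.

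The 2 genes called higher in deep planulae were both tied to the 19S base, whose ATPase 6A-B was called lower. Subunit 1 (gene7252) read 182, 183 and 184 CPM in shallow and 238, 221 and 330 CPM in deep planulae (0.52, SE 0.17, adjusted p = 0.0366; 0.95 with library totals). The subunit 10 chaperone (gene2790) read 14.7, 9.79 and 16.7 CPM against 28.9, 24.5 and 20.6 CPM (0.85, SE 0.23, adjusted p = 0.0127; 1.32 with library totals). Neither overlapped between depths. With only the 6 planula libraries fitted, neither was called (adjusted p = 0.104 and 0.0531). Subunit 1 also lost the call with DESeq2 size factors and without shallow planula 1, 2 or 3 or deep planula 3 (adjusted p up to 0.195), and the subunit 10 chaperone without shallow planula 2 or deep planula 1 (up to 0.0777). With library totals, subunits 2 (gene21505) and 4 (gene6275), the latter a ubiquitin receptor, the PA200-like activator subunit 4 (gene11884) and ECM29 (gene17502) were also called higher.

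In adults 0 of 44 proteasome genes were called between depths by edgeR, DESeq2 or in the authors' deposited table (8.11% of all genes called here, 3.77% higher and 4.33% lower), and 9 had an unadjusted p under 0.05. The member median was 0.37 against 0 over all genes, and 38 genes were positive. The depths did not overlap in 2 genes, against 25.2% of all genes. Alpha type-6 (gene11646) was at 41.9, 40.1 and 54.4 CPM in shallow and 73.7, 31.2 and 180 CPM in deep adults (1.06, SE 0.41, adjusted p = 0.123). Beta type-5 (gene3280) was at 32.5, 31.4 and 47.1 against 56.5, 35.2 and 124 CPM (0.96, SE 0.35, adjusted p = 0.1). Deep adults 2 and 3 lay on opposite sides of the shallow range for alpha type-6. Without deep adult 3 the member median was −0.03, and without deep adult 2 8 genes were called, all higher. Deep adult 3 also held the highest ribosomal protein level of its group, at 64818 CPM over 75 genes.

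**Figure D4:**
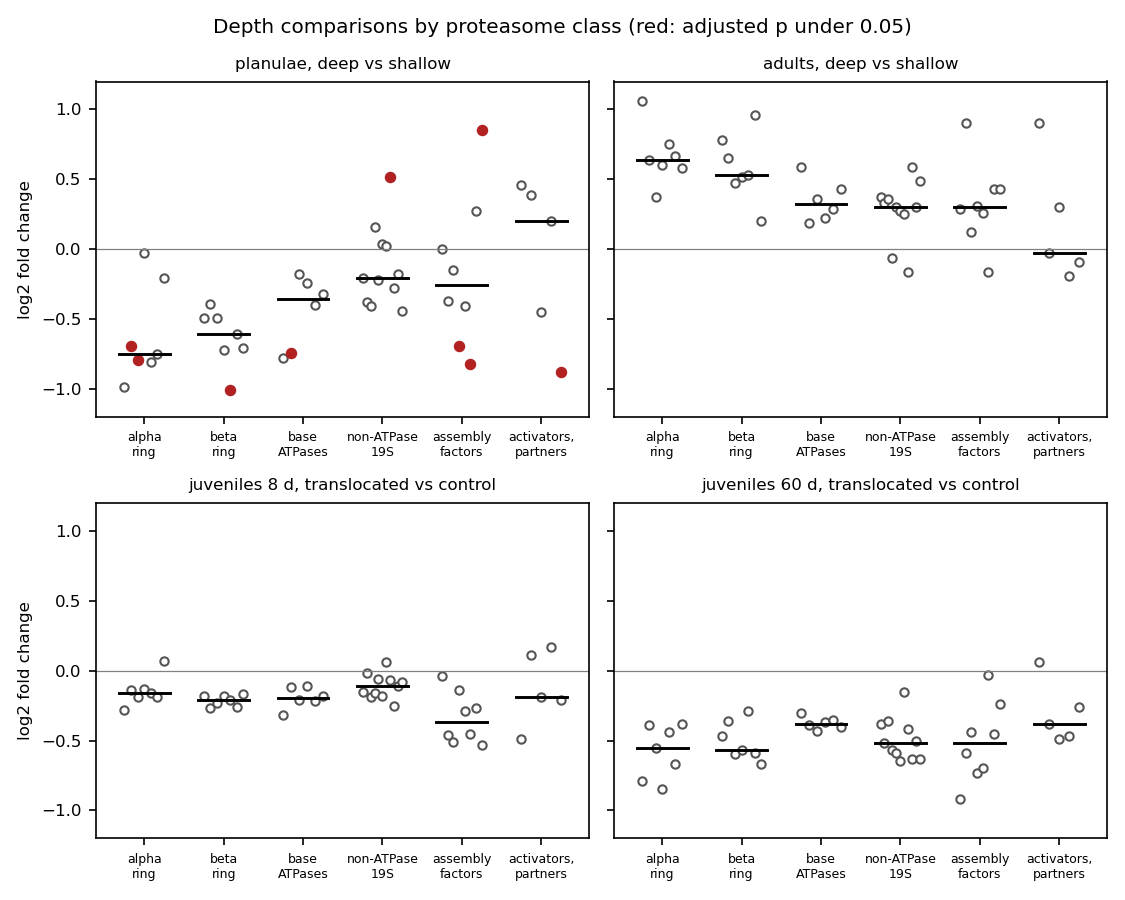
Log2 fold change (y axis, TMM-scaled) of each tested proteasome gene in 4 comparisons of depth, by class of subunit (x axis). Points are genes, red points passed an adjusted p of 0.05 and bars are class medians. The core rings lie lowest in planulae (medians −0.75 and −0.61) and highest in adults (0.64 and 0.53), and 0 genes are red in the other panels than planulae.

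The difference between the depth effects in adults and in planulae was tested directly. It was positive and past the threshold in 8 of 44 genes (6.35% of all genes higher and 6.58% lower, 12.9% called) and negative in 0, with a median of 0.74 against −0.14. Of the 14 core subunits 7 were called and of the 17 19S subunits 1. Alpha type-6 had the largest difference (2.06, SE 0.59, adjusted p = 0.0273), followed by alpha type-1 (gene4917), beta type-5 (gene3280) and beta type-1-B (gene19800) at 1.56, 1.56 and 1.54 (adjusted p = 0.0185, 0.0428 and 0.00869). Alpha type-1 read 105, 141 and 140 CPM in shallow and 63, 65.8 and 91.8 in deep planulae, and 23, 24.4 and 29.3 in shallow and 34, 23.3 and 72.3 in deep adults. With library totals 3 core subunits (alpha types 1 and 6 and beta type-1-B) were still called higher, while subunits 1 and 2, ECM29 and the PA200-like subunit were called lower. Of all genes, 2.66% were higher and 18.5% lower on that scale. With only the 12 planula and adult libraries fitted, 0 were called. The count was 3 without shallow planula 2 or 3, deep planula 1 or 2 or shallow adult 2, 4 without shallow adult 1 or deep adult 3, and 15 without deep adult 2.

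**Figure D5:**
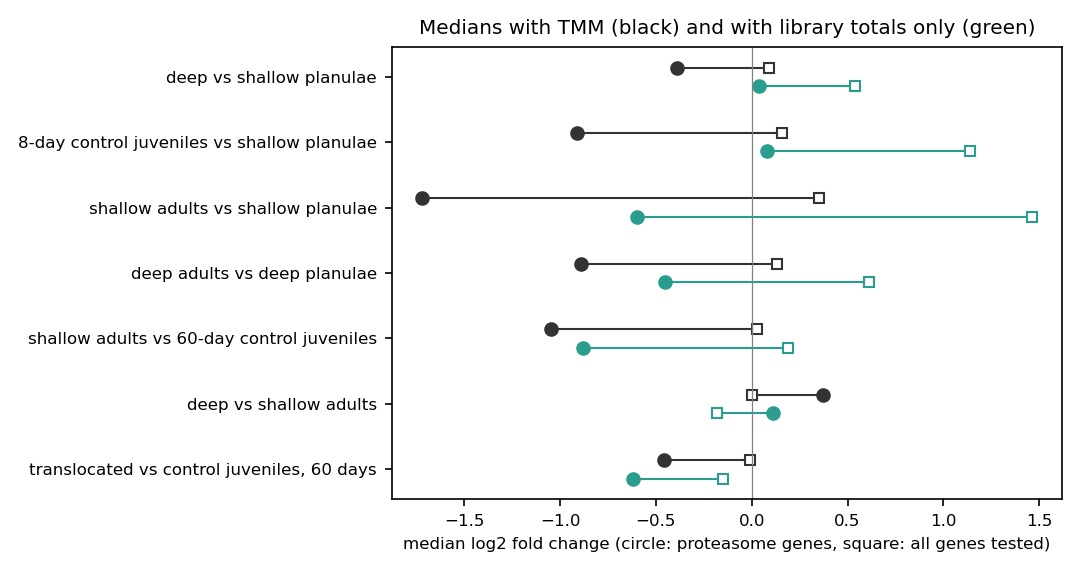
Median log2 fold change (x axis) of the proteasome genes (circles) and of all tested genes (squares) in 7 comparisons (y axis), with TMM (black) and with library totals only (green). The medians shift with the scaling, most in comparisons with planulae, and the distance between circle and square is kept by construction, since a scaling moves all genes nearly alike.

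The last question was what 45 m does to shallow juveniles. At 8 days 0 of 44 genes were called (0.00389% of all genes), 1 had an unadjusted p under 0.05, DESeq2 called 0 and the member median was −0.18 against −0.03. At 60 days 0 were called (2.36% of all genes, 1.28% lower) and 12 had an unadjusted p under 0.05. Of the 44 genes 43 had a negative log2 fold change in translocated juveniles, with a median of −0.46 against −0.01. Members moved together within libraries (control 3 was the highest of its group in 39 genes), so these signs are not independent. The groups did not overlap in 27 of 44 genes, against 20.9% of all genes. DESeq2 called 1 gene lower. With library totals 9 genes were lower and 0 higher, where 2.34% of all genes were lower and 0.82% higher.

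Assembly chaperone 1 (gene1041), which helps form the alpha ring, had the smallest adjusted p. It read 15.3, 18.8 and 20.7 CPM in controls and 7.47, 12 and 9.57 in translocated juveniles (−0.92, SE 0.25, adjusted p = 0.0578; 0.012 with library totals). Alpha type-4 (gene21279) read 126, 138 and 224 against 87.8, 84.1 and 98.7 CPM (−0.85, SE 0.27, adjusted p = 0.107; 0.01 with library totals). Subunit 2 (gene21505), which receives substrates from shuttle factors, read 182, 196 and 213 against 117, 127 and 154 CPM (−0.57, SE 0.18, adjusted p = 0.106; 0.0071 with library totals). In each of these genes the groups did not overlap. The other genes called lower with library totals were the maturation protein, assembly chaperone 2, beta type-7 (gene3675), which bears the trypsin-like site, and 19S subunits 1, 11 (gene9686) and 12 (gene3531), at −0.87 to −0.58.

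At 60 days the medians were −0.56 in the core and −0.42 in the 19S particle, and all 31 subunits were negative. In the ratio of core to 19S, translocated juveniles stood at 0.716, 0.704 and 0.723 and controls at 0.73, 0.75 and 0.836, without overlap and with no test. Ribosomal protein genes lay on the other side, with 73 of 75 positive (median 0.57) and 0 called. The difference in the translocation effect between 60 and 8 days was past the threshold in 0 of 44 proteasome genes (0.0777% of all genes, 0.035% higher and 0.0427% lower; 2 with an unadjusted p under 0.05, 0 by DESeq2), with a median of −0.31. Without 60-day control 3 the 60-day median was −0.30.

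Genes around the proteasome were counted from lists of words in the product names, chosen with earlier results known. Between shallow planulae and shallow adults, 23.4% of all genes were lower in adults and 30.9% higher with TMM, and 10.2% and 57.4% with library totals. The 8 genes of the COP9 signalosome, which resembles the 19S lid and acts on cullin ligases, were all lower with TMM (median −1.13), but 2 lower and 1 higher with library totals. Of 13 genes of p97 and shuttle factors, which extract and carry ubiquitinated proteins, 9 were lower and 1 higher with TMM, and 0 lower and 7 higher with library totals. For p97 itself (gene13349), at 541 ± 26.6 CPM in planulae and 242 ± 14 in adults, the TMM call (−1.16, adjusted p = 3.23e-05) was lost with library totals (−0.04, adjusted p = 0.802). Of 28 ubiquitin-conjugating enzymes 17 were lower and 4 higher with TMM, and 4 and 14 with library totals. Of 259 ubiquitin ligases 41 were lower and 107 higher with TMM, and 12 and 196 with library totals. Deubiquitinases were at the background with TMM, with 12 of 53 lower and 17 higher, and had 4 lower and 37 higher with library totals.

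Some genes that work at the 19S particle were lower in shallow adults on both scales. UCH-L5 (gene10264), a deubiquitinase of the particle, stood at 121 ± 21.5 CPM in planulae and 30 ± 2.82 in adults (−2.02, adjusted p = 3.25e-06; −0.89 with library totals, adjusted p = 5e-04). The ubiquitin receptor ADRM1 (gene14122), whose product name falls outside the word rule, stood at 204 ± 15.8 and 68.3 ± 7.74 CPM (−1.58, adjusted p = 1.78e-05; −0.46 with library totals, adjusted p = 0.0156). The other gene listed as a 19S part outside the rule, proteasomal ATPase-associated factor 1 (gene1492), was called higher with library totals. The ubiquitin-activating enzyme UBA1 (gene12492), which starts the ubiquitin cascade, stood at 327 ± 37.2 and 132 ± 13.9 CPM (−1.3, adjusted p = 1.12e-05), and its call was lost with library totals (−0.19, adjusted p = 0.315). UBA6 (gene14989) was higher in adults on both scales, at 68 ± 13.3 against 36.2 ± 4.2 CPM (0.91, adjusted p = 0.00128; 2.03 with library totals). With library totals, 5 of 6 genes of ubiquitin and its activating enzymes were higher in adults and 0 lower, where 57.4% of all genes were higher. Among them was polyubiquitin-C-like (gene18865), by 3.94 on that scale (adjusted p = 1.33e-05).

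Of 19 autophagy genes, the other route of protein disposal, 11 were lower and 2 higher in shallow adults with TMM, and 3 and 9 with library totals. The TRiC chaperonin, a folding complex, was lower in 8 of 8 genes with TMM and in 1 with library totals. The cytosolic ribosome was lower in 74 of 75 genes with TMM and in 73 with library totals. Between deep and shallow planulae, where 10.4% of all genes were lower with TMM and 4.71% with library totals, the ribosome was lower in 63 of 75 and 59 of 75. The TRiC chaperonin was lower there in 1 of 8 and 0 of 8, and the COP9 signalosome in 1 of 8 on both scales.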

How the data were processed

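The authors deposited raw counts per gene for 24 libraries of poly(A) RNA and a second table with gene names, lengths, log2 fold changes with their adjusted p-values, per the file headers. Named in the submitters' processing notes are DESeq2, Trimmomatic, cutadapt, MultiQC and FastQC. How reads were aligned and counted, on which build and strand, and whether molecular identifiers were used, is not given in the sources used here. Overlapping, antisense or near-identical genes may therefore share reads, and counts carry PCR and counting error alike.

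Counts were filtered with filterByExpr (25735 genes kept), scaled by TMM and fitted in 1 quasi-likelihood model of 8 group means with 16 residual degrees of freedom (R 4.3.3, edgeR 4.0.16, limma 3.58.1). The 12 comparisons were contrasts, tested 2-sided, and p-values were adjusted by Benjamini-Hochberg across the 25735 genes (threshold 0.05). The fit was checked on simulated data, where the first criterion for recovered changes was not met at low counts and was then limited to better-covered genes. Alternatives were DESeq2 1.42.0, its size factors, no filter, only the compared libraries, a replicate block, each library left out and library totals only. The members, classes and lists were chosen with earlier results of these data known. Genes named were the called members without overlap, up to 6 rises and 6 falls per comparison, the smallest p per class in 2 of them and up to 3 called genes per related list. Other members were named after their values were seen. Deviations of same-numbered libraries correlated at −0.16 to 0.26, which cannot show whether samples of different groups are paired. The main model assumed no pairing. No 2 libraries of a group agreed within sampling noise. The result of 1 related gene is not reported here.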

Additional observations from a re-analysis of the deposited data

Results flagged for a closer look

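The depth effect (deep minus shallow, log2) differed between adults and planulae in 8 of 44 tested proteasome genes, each being higher in adults. The difference was tested directly in edgeR's model with Benjamini-Hochberg adjustment. Of all genes, 6.35% were called higher and 6.58% lower (12.9% in all). With only the planula and adult libraries fitted, 0 proteasome genes were called. The differences were 2.06 for alpha type-6 (gene11646; adjusted p = 0.0273), 1.56 for alpha type-1 (gene4917; adjusted p = 0.0185), 1.41 for alpha type-5 (gene6796; adjusted p = 0.0438) and 1.33 for alpha type-7-A (gene17631; adjusted p = 0.0171). Alpha type-2 (gene2120) differed by 1.15 (adjusted p = 0.0481), beta type-5 (gene3280) by 1.56 (adjusted p = 0.0428), beta type-1-B (gene19800) by 1.54 (adjusted p = 0.00869) and ATPase 6A-B (gene12869) by 0.93 (adjusted p = 0.0392). Over 18 alternatives, alpha type-1 and beta type-1-B lost the call in 1, alpha type-7-A in 2, alpha type-6 in 8, beta type-5 in 10 and alpha type-5 in 11. Alpha type-2 and ATPase 6A-B were not followed through the alternatives one by one. Every group had 3 libraries, so single libraries were not tested for standing apart.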

How the results depend on the processing

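Counts of called proteasome genes under the other settings were as follows. Without the filter on low counts, the difference in depth effect between adults and planulae had 4. The DESeq2 Wald test called 1 at 60 days of translocation, 3 from 8 to 60 days in controls and 13 for the difference in depth effect. With a replicate block the depth comparison of planulae had 15 (13 lower) and the difference in depth effect 13. Same-numbered libraries' deviations correlated at −0.16 to 0.26, and whether the numbers pair samples is not known. With only the compared libraries fitted, controls from 8 to 60 days had 2, deep adults against deep planulae 10 and the difference in depth effect 0. With library totals only, chosen after seeing the data, translocation at 60 days had 9, 8-day controls against shallow planulae 13, and 60-day against 8-day translocated juveniles 0. Member medians became 0.04 in planulae between depths, 0.08 from shallow planula to 8-day control, −0.60 from shallow planula to shallow adult and 0.06 for the difference in depth effect. Of the related genes reported, 5 reversed under that scaling: RAD23B (gene8414, 0.25) from shallow planula to 8-day control, and NPL4 (gene14246, 0.2), COP9 subunit 3 (gene11651, 0.06) and the amidase-like gene5336 (0.31) and gene14904 (0.32) from shallow planula to shallow adult. The cause was not tested.

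Leaving out each library gave ranges of called genes of 3 to 12 for planulae between depths, 0 to 8 for adults, 14 (without 8-day control 2) to 30 from shallow planula to 8-day control, 0 to 1 from 8 to 60 days in translocated juveniles, 21 to 35 from 60-day control to shallow adult, 18 to 37 from deep planula to deep adult and 3 to 15 for the difference in depth effect. The member median ranged from −0.03 to 0.55 in adults between depths and from 0.32 to 0.92 for the difference in depth effect. With 3 libraries a group, small differences could not be detected, and a gene that missed the threshold is not shown to be equal.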
